A study of Mus musculus with 9 samples.

Results

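*Nppa* and *Nppb* lie side by side on mouse chromosome 4 and code for the natriuretic peptides of the heart, and the protein-coding genes *Plod1* and *Clcn6* flank the pair. These 4 genes were chosen by name and place at the locus, by a rule that uses no measured value though with earlier results of these data known, and are 4 of the 14011 genes measured. RNA was sequenced from E10.5 mouse hearts of 3 genotypes, with 3 libraries each and a pool of 6 hearts per library, so that the pool is the replicate. Homozygotes were *Ctcf* fl/fl; *Nkx2.5-Cre*/+ and heterozygotes were *Ctcf* fl/+; *Nkx2.5-Cre*/+, all on a mixed strain background. Controls carried floxed *Ctcf* without the driver, given as fl/fl in the sample labels and as fl/+ in the description of the study. *Nkx2.5-Cre* recombines floxed alleles in early cardiac cells, and recombination does not reach every cell type of a whole heart. Controls lacked the driver, so a difference from controls cannot be told apart from an effect of the driver, whereas homozygotes and heterozygotes both carried it. In whole hearts, fewer cells of a type and less RNA per cell cannot be told apart.

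Natriuretic peptides are secreted by cardiac muscle as prohormones, are cut into active hormones, and act on receptors that make cyclic GMP, which relaxes vessels and promotes the excretion of salt and water. *Nppa* codes for the precursor of atrial natriuretic peptide (ANP), and its RNA is widely used in embryos to mark the working myocardium of the expanding chambers. *Nppb* codes for the precursor of B-type natriuretic peptide (BNP), which acts through the same receptor. *Clcn6* codes for a chloride and proton exchanger of late endosomes, and *Plod1* codes for a lysyl hydroxylase that modifies collagen. CTCF is a zinc finger protein that binds DNA at insulators and at the anchors of chromatin loops.

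On the NCBIM37 build and the GENCODE M1 annotation the genes are ordered *Plod1*, *Nppb*, *Nppa*, *Clcn6* along chromosome 4. The uncharacterized gene *2510039O18Rik* lies between *Plod1* and *Nppb*. *Plod1* (ENSMUSG00000019055) spans 147283862 to 147310876 on the minus strand, and *Nppb* (ENSMUSG00000029019) spans 147359897 to 147361314 on the plus strand. *Nppa* (ENSMUSG00000041616) spans 147374831 to 147376188 on the plus strand, and *Clcn6* (ENSMUSG00000029016) spans 147378368 to 147412930 on the minus strand. The gene bodies are 49020 bases apart between *Plod1* and *Nppb*, 13516 bases apart between *Nppb* and *Nppa*, and 2179 bases apart between *Nppa* and *Clcn6*. The noncoding gene *Gm13054* starts between *Nppa* and *Clcn6* and runs antisense through *Nppa*, sharing 532 of the 865 exonic bases of *Nppa*. Values of *Gm13054* ranged from 0.765 to 2.70 over the libraries, against 440 to 863 for *Nppa*. Whether strand was used in counting is not given in the sources used here, so reads over the shared bases could belong to either gene.

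The 250 bases before the RefSeq start sites of *Nppa*, *Nppb* and *Clcn6* are shown so that the promoters of the peptide genes can be read beside each other and beside that of *Clcn6*. The sequences are RefSeq promoter sequences, placed on NCBIM37 by exact match at chr4:147374581-147374830 (plus strand, *Nppa*), chr4:147359759-147360008 (plus strand, *Nppb*) and chr4:147412923-147413172 (minus strand, *Clcn6*). They read 5′ to 3′ on the strand of the gene, and capitals mark matches on either strand to 4 short motifs. The letters AAGTG stand for NKX2-5 sites. Sites of GATA factors were searched as the letters AGATAA and, in a further search, as the letters TGATAA. For T-box factors the letters AGGTGT were used.
Nppa: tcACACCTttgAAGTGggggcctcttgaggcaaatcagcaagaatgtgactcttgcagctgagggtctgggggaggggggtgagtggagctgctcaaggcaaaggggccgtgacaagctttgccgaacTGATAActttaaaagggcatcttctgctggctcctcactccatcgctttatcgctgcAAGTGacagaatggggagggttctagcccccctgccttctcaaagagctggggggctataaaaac
Nppb: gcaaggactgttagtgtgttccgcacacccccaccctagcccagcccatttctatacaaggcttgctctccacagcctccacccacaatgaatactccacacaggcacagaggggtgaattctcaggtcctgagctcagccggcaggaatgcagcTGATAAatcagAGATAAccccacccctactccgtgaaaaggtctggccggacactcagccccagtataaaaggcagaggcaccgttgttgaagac
Clcn6: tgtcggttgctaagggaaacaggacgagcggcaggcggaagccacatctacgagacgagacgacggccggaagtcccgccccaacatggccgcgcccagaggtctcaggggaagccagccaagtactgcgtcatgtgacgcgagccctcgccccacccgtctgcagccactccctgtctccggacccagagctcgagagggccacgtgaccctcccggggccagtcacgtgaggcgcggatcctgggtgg
The *Nppa* sequence holds NKX2-5 letters at -239 to -235 and at -65 to -61, counted from the base before the start site, GATA letters at -122 to -117, and T-box letters on the opposite strand at -248 to -243. The *Nppb* sequence holds GATA letters at -95 to -90 and at -84 to -79 and neither of the other motifs. The *Clcn6* sequence holds none of them, and the same window of *Plod1* holds NKX2-5 letters once, on the opposite strand. The matched stretches do not overlap each other. Among the RefSeq promoters of 9579 measured genes, 36.6% hold NKX2-5 letters, 9.09% hold GATA letters and 9.17% hold T-box letters. The CArG box of SRF (in 1.24% of promoters) and GGTGGCA, a part of the CTCF motif (in 4.14%), were searched on both strands and are in none of these 4 windows. GENCODE M1 starts *Nppb* 112 bases further upstream, and the 250 bases before that start hold none of the motifs. Such matches describe letters and are not evidence of binding.

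The libraries held 4294537 to 11629365 reads, and replicates differed by more than sampling noise in every pair (3.33 to 7.35 times the variation that sampling alone would give, by chi-square over genes). Values are reads scaled to a common library size, and 1 read was worth 0.0901 to 0.231. *Ctcf* itself was 121 ± 0.837 in controls, 97.3 ± 3.26 in heterozygotes and 81.4 ± 2.85 in homozygotes (mean ± SD, n = 3 each), so that homozygous hearts kept 67.04% of the control level. Over all genes limma called 7.19% higher and 8.03% lower in homozygotes against controls, and 6.87% higher and 6.7% lower against heterozygotes. Cardiac muscle markers were high in all libraries, with summed levels of 12649 to 14300 in controls, 13559 to 15893 in heterozygotes and 11459 to 13924 in homozygotes for the 7 markers. Of these, *Actn2* and *Ryr2* were lower in homozygotes than in controls, with a median of -0.35 over the list on the log2 scale and the call of *Actn2* lost under 6 of 19 alternatives. Against heterozygotes all 7 had values below 0, with a median of -0.51, and *Actn2*, *Ryr2* and *Myh6* were called lower. All 6 erythroid markers were higher in homozygotes than in both other groups, with summed levels of 28285 to 40222 in controls, 22568 to 37820 in heterozygotes and 49697 to 65485 in homozygotes. Their calls against controls were each kept under 12 to 18 of 19 alternatives, the fewest for *Alas2*, which was lost with DESeq2 (adjusted p = 0.0887), and their calls against heterozygotes under 17 to 19. Of 4 epicardial markers 3 were higher in homozygotes than in both other groups, with sums of 338 to 385 in controls, 352 to 379 in heterozygotes and 449 to 500 in homozygotes. Of 6 endothelial and endocardial markers *Emcn* was higher in homozygotes than in controls and the other 5 had values below 0 without a call (median of the list -0.16 on the log2 scale), and the call of *Emcn* was lost under 6 of 19 alternatives, among them DESeq2 (adjusted p = 0.0822). Of 4 cushion markers, *Postn* was called lower in both comparisons. All 4 were below 0 against controls and 3 against heterozygotes, where *Sox9* was at 0.15. The neural marker *Tubb3* was higher in both comparisons, with the call against heterozygotes lost under 12 of 19 alternatives. *Elavl3* had values of -0.24 against controls and -0.38 against heterozygotes without a call (*Sox10* is not in the table). The control library of 8457617 reads stood apart by liver and endoderm markers, with an *Afp* value of 595 against 3.64 to 55.6 in the other libraries. Of the 4 liver and endoderm markers limma called 0 in each comparison. Its unadjusted p was under 0.05 for 1 in homozygotes against controls, 1 in homozygotes against heterozygotes and all 4 in heterozygotes against controls (median -2.63). The shares of all genes under that limit were 29.6%, 27.6% and 7.37% in the same order of comparisons. With edgeR and with DESeq2, 1 of the 4 was called, in homozygotes against heterozygotes. Without that library *Nppa* was at -0.45 against controls on the log2 scale (adjusted p = 0.0498 by limma), *Nppb* at 0.10 (0.551), *Clcn6* at -0.24 (0.263) and *Plod1* at 0.10 (0.720). The part of these cell types in the results that follow was not tested.

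*Nppa* was the most abundant of the 4 genes and was lower in homozygous hearts than in both other groups. Listed from the fewest total reads to the most, as throughout, control libraries had values of 828, 691 and 731, heterozygous libraries had 863, 791 and 822, and homozygote replicates 1, 2 and 3 had 677, 618 and 440. Every homozygous library lay below every control and heterozygous library, while control and heterozygous libraries overlapped. The mean was 750 ± 70.4 in controls, 825 ± 35.7 in heterozygotes and 578 ± 123 in homozygotes (SD, n = 3 each), so that homozygotes held 77.1% of the control mean and 70.03% of the heterozygous mean. The log2 fold change was -0.39 (SE 0.12, 95% interval -0.66 to -0.13) against controls, with an adjusted p of 0.0462 by limma, and -0.54 (SE 0.12, -0.80 to -0.27) against heterozygotes, with an adjusted p of 0.0127. The difference from controls was near the threshold and was lost under 12 of 19 alternatives, among them edgeR (adjusted p = 0.0537) and DESeq2 (adjusted p = 0.116). It shrank to -0.21 (adjusted p = 0.126) without the homozygous library of 11629365 reads, and the call was also lost, at -0.32 (adjusted p = 0.175), without the control library of 6698891 reads. The difference from heterozygotes kept its call under 17 of 19 alternatives, edgeR and DESeq2 among them. That call was lost without the heterozygous library of 4294537 reads (-0.50, adjusted p = 0.0504), and the value shrank to -0.35 without the homozygous library of 11629365 reads.

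*Nppb* did not fall with *Nppa*. Control libraries had values of 97.3, 85.1 and 117, heterozygous libraries had 91.5, 101 and 99.9, and homozygote replicates 1, 2 and 3 had 109, 127 and 109. The homozygous libraries overlapped the controls through 1 control library and lay above every heterozygous library. The mean was 99.97 ± 16.3 in controls, 97.6 ± 5.39 in heterozygotes and 115 ± 10.6 in homozygotes (SD, n = 3 each). The log2 fold change was 0.21 (SE 0.10, 95% interval -0.01 to 0.43, adjusted p = 0.185 by limma) against controls and 0.23 (SE 0.10, 0.02 to 0.45, adjusted p = 0.150) against heterozygotes, so neither passed the test and neither interval holds a fall larger than 0.01. Without the control library of 9654014 reads the value against controls was 0.33 and passed the test (adjusted p = 0.0323), while it was 0.10 without the control library of 8457617 reads and 0.14 without the homozygous library of 6139084 reads. After removal of a trend with gene length it was 0.02 against controls (adjusted p = 0.950) and 0.10 against heterozygotes (adjusted p = 0.604).

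**Figure D1:**
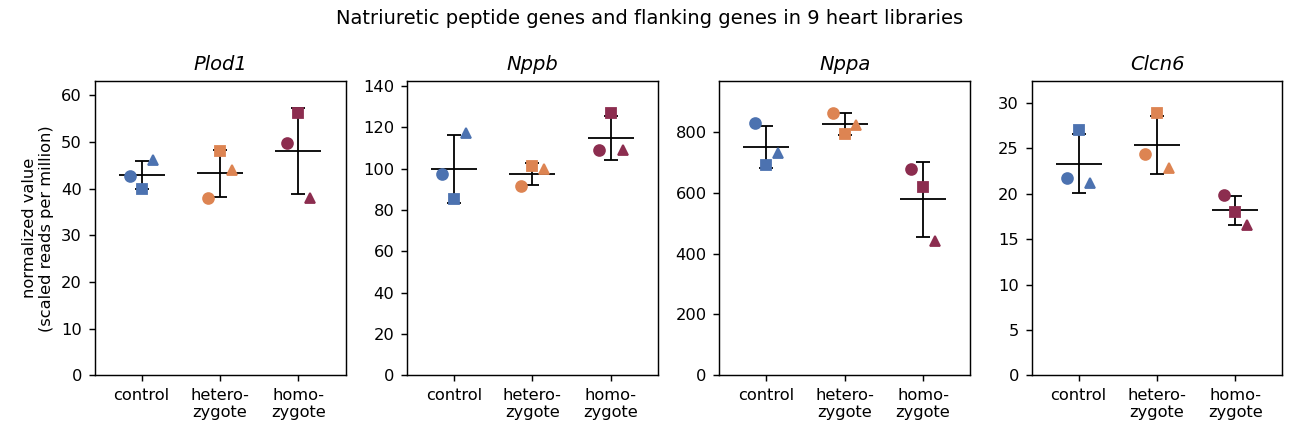
Normalized values (scaled reads, linear axes from 0) of the 4 genes in their order along chromosome 4, with 1 point per library, circles, squares and triangles for the libraries with the fewest, middle and most reads in each group, and bars for the mean ± SD (n = 3). The homozygous libraries of *Nppa* (440 to 677) and of *Clcn6* (16.6 to 19.9) lie below every other library, while those of *Nppb* and *Plod1* do not.

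The ratio of the *Nppa* value to the *Nppb* value within each library, with 0.5 added to each value, set the peptide genes against one another. Apart from the added 0.5, this ratio does not depend on how libraries are scaled to each other. Control libraries had ratios of 8.47, 8.07 and 6.20, heterozygous libraries had 9.39, 7.76 and 8.19, and homozygote replicates 1, 2 and 3 had 6.19, 4.84 and 4.02. The highest homozygous ratio lay just under the lowest control ratio, so that homozygotes stood apart from both other groups, while controls and heterozygotes overlapped. The mean log2 ratio was 2.30 ± 0.31 in homozygotes, 2.91 ± 0.24 in controls and 3.07 ± 0.14 in heterozygotes (SD, n = 3 each). The difference was -0.60 between homozygotes and controls and -0.77 between homozygotes and heterozygotes, each with p = 0.1 in an exact two-sided permutation test, which is the smallest p that 3 against 3 libraries allow. Heterozygotes and controls differed by 0.16 (p = 0.5, same exact test).

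**Figure D2:**
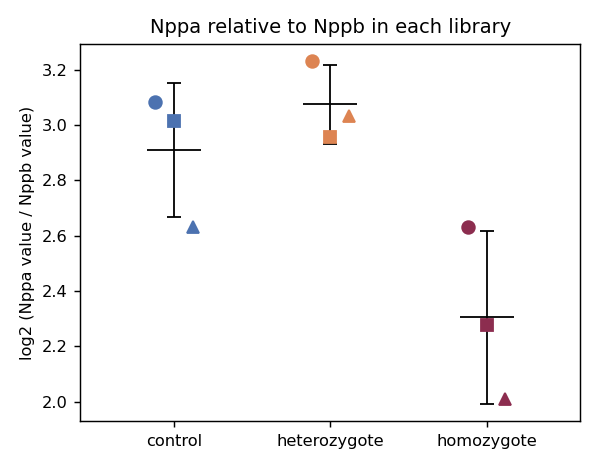
Log2 ratio of the *Nppa* value to the *Nppb* value, with 0.5 added to each, in each library by genotype. Symbols are by total reads as circles (fewest), squares and triangles (most), with bars for the mean ± SD (n = 3). The axis does not start at 0. The homozygous libraries lie from 2.01 to 2.63, with the highest just below the lowest control at 2.63 and all of them below all heterozygous libraries.

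*Clcn6*, which ends 2179 bases from *Nppa* and is transcribed towards it, was lower in homozygous hearts than in heterozygous hearts. Control libraries had values of 21.7, 27.1 and 21.2, heterozygous libraries had 24.3, 29.0 and 22.8, and homozygote replicates 1, 2 and 3 had 19.9, 18.0 and 16.6. No homozygous library overlapped the other groups. The mean was 23.3 ± 3.25 in controls, 25.4 ± 3.20 in heterozygotes and 18.2 ± 1.63 in homozygotes (SD, n = 3 each). The log2 fold change was -0.47 (SE 0.12, 95% interval -0.73 to -0.20, adjusted p = 0.0235 by limma) against heterozygotes and -0.35 (SE 0.12, -0.61 to -0.08, adjusted p = 0.0740) against controls, the latter short of the threshold. The call against heterozygotes was lost under 6 of 19 alternatives, with adjusted p-values of at most 0.0991, among them leaving out the heterozygous library of 7946683 reads, that of 4294537 reads, the homozygous library of 6139084 reads and that of 11629365 reads, between which the value ranged from -0.49 to -0.37. The values rest on 87 to 232 reads per library.

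*Plod1* showed no difference past the test. Control libraries had values of 42.6, 40.0 and 46.1, heterozygous libraries had 37.9, 48.0 and 43.9, and homozygote replicates 1, 2 and 3 had 49.8, 56.3 and 38.0. The 3 groups overlapped, and homozygote replicate 3 was the lowest homozygote in *Plod1*, *Nppa* and *Clcn6*. The log2 fold change was 0.15 (SE 0.13, 95% interval -0.13 to 0.42, adjusted p = 0.485 by limma) against controls and 0.14 (SE 0.13, -0.13 to 0.41, adjusted p = 0.523) against heterozygotes. Without the homozygous library of 6139084 reads these values were 0.02 and 0.02, and without that of 11629365 reads they were 0.30 and 0.29, with no call.

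Of the 4 genes, 1 was called lower against controls, where 15.2% of all genes were called, 8.03% lower and 7.19% higher. Against heterozygotes 2 of the 4 were called lower, where 13.6% of all genes were called, 6.7% lower and 6.87% higher. Both comparisons share the homozygous libraries. Between heterozygotes and controls limma called none of the 4, where it called 0.143% of all genes, 0.05% lower and 0.0928% higher, and none of the 4 had an unadjusted p under 0.05. The log2 fold changes in that comparison were 0.14 for *Nppa* (95% interval -0.12 to 0.41), -0.02 for *Nppb* (-0.24 to 0.19), 0.12 for *Clcn6* (-0.14 to 0.38) and 0.01 for *Plod1* (-0.26 to 0.28). The intervals include 0, and their width leaves room for changes of up to 0.41 on the log2 scale in *Nppa*.

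Per kilobase of exonic length, which allows genes to be compared, *Nppa* had a level of 867 in controls, 954 in heterozygotes and 668 in homozygotes. The level per kilobase of *Nppb* was 128 in controls, 125 in heterozygotes and 147 in homozygotes. *Plod1* stood at 6.34, 6.40 and 7.10 per kilobase and *Clcn6* at 3.93, 4.27 and 3.06 in the same order of groups. The order from *Nppa* to *Clcn6* was the same in every library, so that *Nppa* was above *Nppb* in homozygotes too.

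To see how the change at *Nppa* sat among its wider surroundings, all genes whose start site lies within 500 kb of that of *Nppa* were examined. GENCODE M1 has 41 such genes, of which 23 are in the table with the 4 genes included. Against controls 4 of the 23 were called, where 15.2% of all genes were called, and against heterozygotes 5 of 23, where 13.6% were called. *Fbxo6*, an F-box protein that recognizes glycoproteins for degradation, was higher in homozygotes in both comparisons, at 12.5 ± 1.99 in controls, 11.97 ± 1.66 in heterozygotes and 17.8 ± 1.97 in homozygotes (SD, n = 3 each; log2 fold changes 0.50, adjusted p = 0.0344, and 0.56, adjusted p = 0.0242). Its tandem neighbour *Fbxo44* went the other way against controls, with 8.38 ± 1.17 in controls and 5.52 ± 0.621 in homozygotes (log2 fold change -0.56, adjusted p = 0.0379), and heterozygotes at 6.12 ± 0.698 were close to the homozygotes (-0.14, adjusted p = 0.644). *Angptl7*, which codes for a secreted angiopoietin-like protein and lies within *Mtor* on the other strand, was higher against controls (0.83, adjusted p = 0.0218), and *Mtor*, the kinase of the growth-controlling TOR complexes, was lower against heterozygotes (-0.36, adjusted p = 0.0122). The zinc finger gene *2610305D13Rik* was higher against heterozygotes (0.77, adjusted p = 0.0209), although 4 near-identical coding genes make its reads uncertain. Against controls the calls of *Fbxo6* and *Fbxo44* were each kept under 11 of 19 alternatives and lost with DESeq2 (adjusted p = 0.0559 and 0.127), and that of *Angptl7* was kept under 15 of 18. Against heterozygotes the calls of *Fbxo6*, *2610305D13Rik* and *Mtor* were kept under 14, 14 and 15 of 19.

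The remaining neighbours were not called in either comparison. *Mfn2*, which codes for mitofusin of the outer mitochondrial membrane, was the most abundant of them, at 151 ± 6.78 in controls and 148 ± 9.77 in homozygotes (log2 fold change -0.04, adjusted p = 0.768). *2510039O18Rik* between *Plod1* and *Nppb* had 42.3 ± 3.49 in controls and 45.2 ± 4.36 in homozygotes (0.09, adjusted p = 0.573). The median log2 fold change of the 23 genes was -0.06 against controls and 0.01 against heterozygotes, beside 0.00 for all genes in both. Between heterozygotes and controls limma, edgeR and DESeq2 called 0 of the 23, and 3 had an unadjusted p under 0.05, as did 7.37% of all genes. When single libraries were left out, the count against controls fell to 0 (control library of 6698891 reads), to 1 (homozygous library of 11629365 reads) or to 2 (control library of 9654014 reads, heterozygous library of 7946683 reads or either of the other homozygous libraries). The count against heterozygotes fell to 1 without the heterozygous library of 4294537 reads, to 2 without the heterozygous library of 7946683 reads or the homozygous library of 11629365 reads and to 3 without either of the other homozygous libraries.

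**Figure D3:**
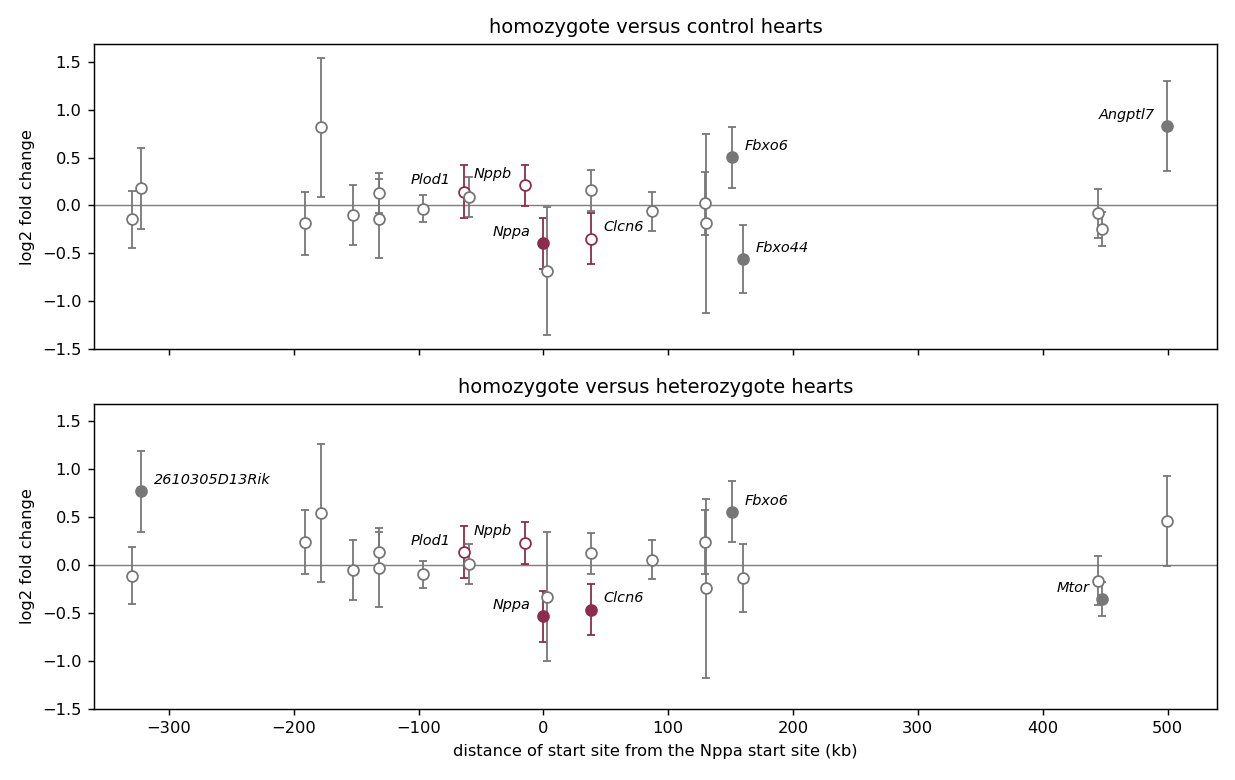
Log2 fold change with 95% intervals of the 23 measured genes by distance of their start sites from the *Nppa* start site (kb), for homozygotes against controls (top) and against heterozygotes (bottom); filled points passed the test (limma adjusted p under 0.05) and dark red marks the 4 genes. *Nppa* and *Clcn6* lie below 0 in both panels, *Nppb* on the other side of *Nppa* from *Clcn6* lies above 0 without passing the test, and *Fbxo6* is above 0 in both.

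The other genes of natriuretic peptide signalling were examined from receptors to effectors, and 14 of 16 listed genes were in the table (the ligand genes *Nppc* and *Ostn* were not). Against controls 3 of the 14 were lower in homozygotes, where 8.03% of all genes were, and the median was -0.25. *Npr3*, the clearance receptor that removes the peptides, had values of 251, 240 and 234 in controls, 222, 205 and 209 in heterozygotes, and 199, 186 and 170 in homozygote replicates 1, 2 and 3. No group overlapped another, and the log2 fold change passed the test against controls (-0.39, adjusted p = 0.00180) but not against heterozygotes (-0.20, adjusted p = 0.0586) or between heterozygotes and controls (-0.19, adjusted p = 0.491). *Npr1*, the guanylyl cyclase receptor of ANP and BNP, had 16.8 ± 0.944 in controls and 14.3 ± 2.89 in homozygotes and did not pass the test (-0.24, adjusted p = 0.269). *Npr2*, the receptor of C-type natriuretic peptide, was lower against heterozygotes (-0.47, adjusted p = 0.0421), with a value of -0.42 against controls (adjusted p = 0.0596). Its call was lost under 13 of 19 alternatives, with edgeR (adjusted p = 0.0537) and DESeq2 (adjusted p = 0.180) among them, while the call of *Npr3* against controls was kept under all 19.

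Among the proteases *Pcsk6*, the proprotein convertase that activates corin, had the largest difference of the pathway. Control libraries had values of 21.6, 20.1 and 30.4, heterozygous libraries had 25.3, 31.2 and 25.2, and homozygote replicates 1, 2 and 3 had 11.2, 14.1 and 12.1. Every homozygous library was below every other library, with log2 fold changes of -0.90 (SE 0.15, adjusted p = 0.00189) against controls and -1.09 (SE 0.15, adjusted p = 0.000674) against heterozygotes. *Corin*, the membrane protease that cuts pro-ANP, had values of 55.8 ± 2.13 in controls, 54.7 ± 1.41 in heterozygotes and 48.8 ± 7.09 in homozygotes and passed neither test (adjusted p = 0.168 and 0.249). *Furin*, which cuts pro-BNP, was lower against heterozygotes (-0.26, adjusted p = 0.0484), with a value of -0.23 against controls that did not pass (adjusted p = 0.0733). The peptide-degrading enzymes *Mme* and *Ide* were not called. Of the 6 cyclic GMP effectors and phosphodiesterases, *Pde3a* was lower against controls (-0.31, adjusted p = 0.0471), with a value of -0.10 against heterozygotes (adjusted p = 0.559), and the others were not called. The calls of *Furin* and *Pde3a* were kept under 7 and 5 of 19 alternatives and that of *Pde3a* was lost with DESeq2 (adjusted p = 0.206), whereas those of *Pcsk6* were kept under all 19. Against heterozygotes 3 of the 14 genes were lower, where 6.7% of all genes were.

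Several transcription factors known to act on *Nppa* were lower in homozygotes. Of 8 activators 5 were lower against controls and 6 against heterozygotes, and of 6 repressors 1 was lower against controls and 2 against heterozygotes, beside 8.03% and 6.7% of all genes. *Nkx2-5*, a homeodomain activator after which the driver is named, had values of 75.8, 69.2 and 81.2 in controls, 58.5, 58.8 and 53.7 in heterozygotes, and 38.3, 36.8 and 41.4 in homozygote replicates 1, 2 and 3. These groups were fully apart, and the log2 fold change was -0.95 (SE 0.08) against controls and -0.55 (SE 0.08, adjusted p = 0.000764) against heterozygotes. Between heterozygotes, which carried the driver, and controls, which lacked it, *Nkx2-5* was at -0.40 (SE 0.08, adjusted p = 0.0974 by limma) without a call. An effect of the driver on that value was not tested. *Myocd*, *Mef2c* and *Tbx20* were among the other activators lower against controls (log2 fold changes -0.58, -0.42 and -0.42). Of these *Tbx20* was not called against heterozygotes (-0.22, adjusted p = 0.0697 by limma), and it was at -0.20 between heterozygotes and controls (adjusted p = 0.605). *Gata4* did not pass either test (-0.10, adjusted p = 0.286 against controls), and *Tbx5* and the serum response factor *Srf* were lower against heterozygotes (-0.41, adjusted p = 0.0116, and -0.24, adjusted p = 0.0482) and not called against controls. The repressor *Hey2*, which restrains *Nppa* in compact ventricular wall, was 69.8 ± 4.88 in controls, 68.2 ± 3.37 in heterozygotes and 41.5 ± 0.765 in homozygotes (-0.74 against controls), and *Tbx3*, a repressor of the conduction system, was lower against heterozygotes (-0.45, adjusted p = 0.0445). The calls of *Nkx2-5*, *Myocd*, *Mef2c* and *Hey2* in both comparisons and of *Tbx20* against controls were kept under all 19 alternatives and that of *Tbx5* under 18, but those of *Srf* and *Tbx3* under 5 and 7, both lost with DESeq2 (adjusted p = 0.0579 and 0.109) and that of *Srf* also with edgeR (adjusted p = 0.0509).

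Genes that mark chamber myocardium beside *Nppa* were measured at 17 of 18 (*Sln* was not in the table). Against controls 6 were lower and 1 was higher, where 8.03% and 7.19% of all genes were, and against heterozygotes 8 were lower, where 6.7% of all genes were. The connexins showed larger differences than *Nppa*, with *Gja5* at 167, 124 and 116 in controls, 145, 158 and 122 in heterozygotes, and 55.8, 46.6 and 33.1 in homozygote replicates 1, 2 and 3. The log2 fold change of *Gja5* was -1.59 (SE 0.17) against controls and -1.67 (SE 0.17) against heterozygotes, and that of *Gja1* was -1.05 and -1.29. *Cited1* of trabecular myocardium (-0.77) and the ventricular factors *Irx4* (-0.83) and *Hand1* (-0.45) were also lower against controls. The atrial light chain *Myl4* was higher (0.23, adjusted p = 0.0323), and *Bmp10*, a trabecular growth factor, had a value of -0.23 that did not pass (adjusted p = 0.376). The myosin heavy chains *Myh6* and *Myh7* were lower against heterozygotes (-0.59 and -0.61, adjusted p = 0.0222 and 0.0172) and were not called against controls. The calls of *Gja5*, *Gja1*, *Cited1*, *Irx4* and *Hand1* were kept under all 19 alternatives in both comparisons, that of *Myl4* under 9, and those of *Myh6* and *Myh7* under 14 and 16. Between heterozygotes and controls limma called 0 of the 45 genes of these 3 groups, 6 (13.3%) had an unadjusted p under 0.05 beside 7.37% of all genes, edgeR called 0 and DESeq2 called 1.

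**Figure D4:**
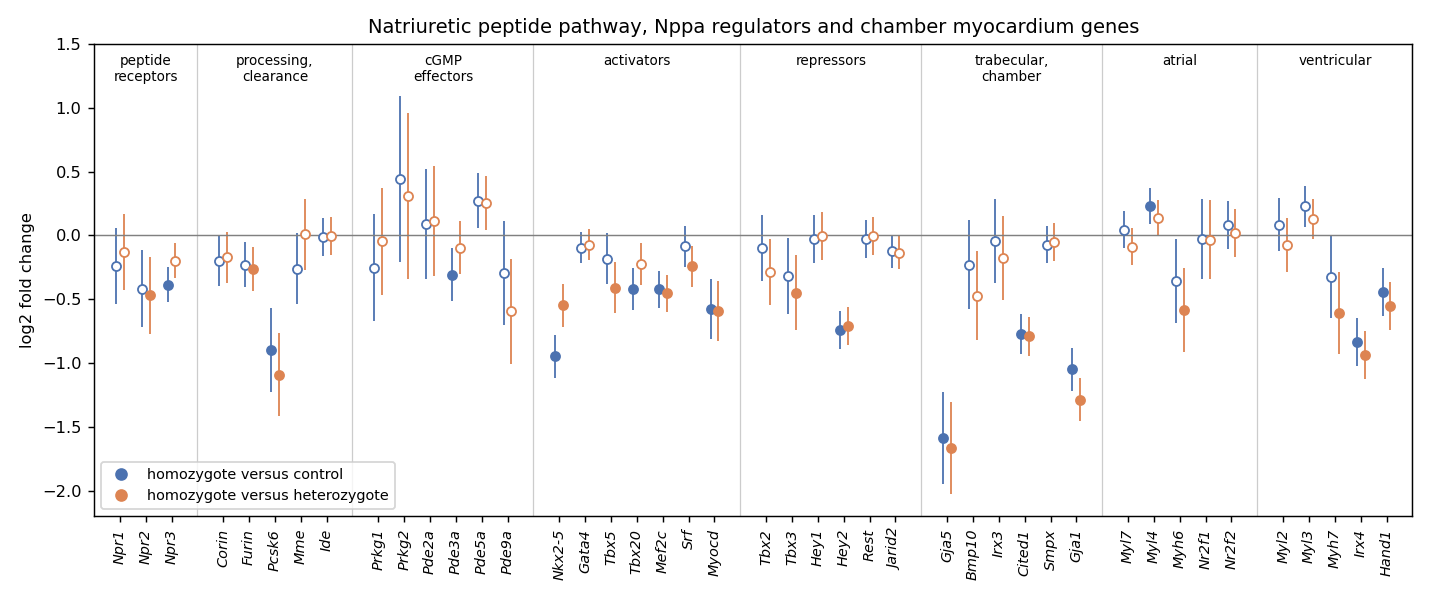
Log2 fold change with 95% intervals of pathway genes, *Nppa* regulators and chamber myocardium genes in homozygotes against controls (blue) and against heterozygotes (orange); filled points passed the test (limma adjusted p under 0.05). *Gja5*, *Gja1* and *Pcsk6* have the lowest values in their groups, and most receptors and effectors lie nearer to 0.

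The genes whose profile over the 9 libraries was nearest to that of *Nppa* were *Evc2*, *Speg*, *Slc12a7*, *Kcnh2* and *Atp11a*, among the 9846 genes whose mean value reached 10. The measure is the root mean square difference of log2 values centred on each gene's mean, and it was 0.0658 for *Evc2* and 0.0837 for *Atp11a* against 0.303 for the median gene. All 9 libraries entered the measure, so the likeness includes the differences between genotypes. *Nppb* was far down the same order, at place 8207 with a difference of 0.385. For *Nppb* the nearest genes were *Acot13*, *Fam195a*, *Tmem126a*, *Map1lc3a* and *Pank1*, from 0.0728 to 0.0835 against a median of 0.206, and *Nppa* was at place 9386. The peptide genes were thus further from each other in profile than the median gene was from either.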

How the data were processed

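RNA-seq was analyzed for 9 libraries of E10.5 hearts, 3 per genotype. Per the labels, RNA was polyA-selected and libraries were made with a TruSeq kit, and the submitters' processing notes name CASAVA 1.8, cutadapt 1.6.1, RSEM 1.20, Bowtie2 0.12.7, limma and NCBIM37, with no role stated. The authors deposited 1 table of normalized signal values for 14011 genes. Each deposited signal value proved to be a whole number of counted reads plus 0.5 (100% of values, tolerance 0.02), scaled by total reads times edgeR's TMM factor, and every gene had a value of at least 1 in 3 libraries. Columns named Het were taken as controls and DH as heterozygotes, because the growth protocol calls the latter double heterozygous and the group averages of the study match, while the sample titles use HET for the heterozygotes.

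Log2(value + 0.5) was tested with limma 3.58.1 (R 4.3.3) in a fit of all 9 libraries and 3 groups with a mean-variance trend, with Benjamini-Hochberg adjustment over all 14011 genes, and calls were made at an adjusted p under 0.05. Fold changes are on that log2 scale, which understates changes of low genes. Nothing states that pools came from separate litters, so p-values measure the spread between these pools. Alternatives were pseudocounts of 1 and 0.1, a mean value of at least 5, no trend, only the groups compared, quantile normalization, removal of a trend with gene length, a replicate block, leaving out each library, and edgeR 4.0.16 and DESeq2 1.42.0 on the recovered reads. The methods were tested on simulated data. Genes named were the 4 genes, all measured genes within 500 kb, fixed lists (natriuretic signalling, *Nppa* regulators, chamber myocardium, cell type markers) and the 5 genes nearest in profile. Some listed genes are counted but not reported here by name. Members and lists were chosen with earlier results of these data known. Near-identical coding sequences were searched with BLAST+ 2.17.0 (at least 95% identity over at least 50% of the length), and only *2610305D13Rik* and *Gm13157* had any among the coding neighbours. Promoter sequences came from the RefSeq table given for GRCm38.p6 and were placed on NCBIM37 by exact match. Tables were made with Python 3.11.15.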

Additional observations from a re-analysis of the deposited data

How the results depend on the processing

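Of 22 results under up to 19 alternatives each, 355 of 409 values stayed the same. For a gene this means the same direction and side of the threshold, and for a count a change within 1.5 times. The *Nppa* to *Nppb* ratio had to keep its direction and move by less than the larger SD of the groups compared. Results without a call that stayed without one are among the 355. For *Nppa* against controls the value was -0.39 without the trend (adjusted p = 0.144), with only the groups compared (0.0721) and with the replicate block (0.0708), -0.38 with edgeR (0.0537) and -0.38 with DESeq2 (0.116), and it ranged from -0.52 to -0.21 over the libraries left out, with the call kept in 2 of 9. Against heterozygotes it was -0.54 without the trend (adjusted p = 0.0728) and -0.66 to -0.35 over the libraries left out. *Clcn6* against heterozygotes was -0.47 without the trend (adjusted p = 0.0623), -0.42 with the length trend removed (0.0631) and -0.54 to -0.37 over the libraries left out. *Nppb* against controls ranged from 0.10 to 0.33 over the libraries left out. Between heterozygotes and controls *Nppb* ranged from -0.13 to 0.10 and *Plod1* from -0.07 to 0.10, changing sign without a call (*Nppb* 0.10 and 0.02, *Plod1* -0.04, -0.0049 and -0.0688). The difference in the *Nppa* to *Nppb* ratio from controls ranged from -0.77 to -0.46 over the libraries left out.

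Neighbours called against controls numbered 2 without the trend and with only the groups compared, 1 with DESeq2 and 1 with the replicate block, and 0 to 4 over the libraries left out. Against heterozygotes they numbered 0 without the trend, 3 with the length trend removed and 1 to 5 over the libraries left out. All genes called against controls numbered 1196 without the trend, 1325 with the length trend removed and 1049 to 2084 over the libraries left out. Against heterozygotes they numbered 1063 without the trend and 1023 to 1859 over the libraries left out, and between heterozygotes and controls 10 without the trend, 40 with DESeq2 and 13 to 25 over the libraries left out. The cause of these moves was not tested. The replicate number was used as a block only as an alternative, since same-numbered libraries did not deviate together (correlations from -0.108 to 0.0987). Apart from the results above, the block changed no call of the 4 genes. Counts for the pathway (2 to 3), the regulators (6) and the chamber genes (5 to 8) against controls kept within 1.5 times under all 19 alternatives.

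With 3 pools per genotype, the values of *Nppb* and *Plod1* did not pass the limma test, which does not show that they did not differ. *Clcn6* rests on few reads. Whole hearts give no view of where in the heart a gene is expressed, and protein was not analysed here.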
